A study of Homo sapiens with 6 samples.

Results

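The genes described here are 32 human amino acid transporters of the cell surface and the lysosome, read in A549 cells that overexpress GPX3 and in A549 cells with a vector. They form a list of names from the solute carrier families SLC1, SLC3, SLC6, SLC7, SLC36, SLC38 and SLC43 that was drawn up with earlier results of these data known, and all 32 were found among the 58735 genes of the deposited tables. Of the 32, 29 had at least 1 count in some library and 25 had enough counts to be tested, among 14458 genes tested in all. A549 is an established human lung adenocarcinoma line. The study compared 3 libraries titled OE_GPX3, whose genotype and treatment are both labelled OE, with 3 libraries titled Vector, labelled WT, to ask what GPX3, a secreted selenium-containing glutathione peroxidase, does to these cells. The labels give no time point, no clone and no further agent. Whether the replicates are separate cultures is not labelled, so each p-value sets the groups against a spread between libraries that may be only technical. These are bulk libraries, in which fewer cells that express a gene and less of its RNA per cell cannot be told apart.

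Amino acid transporters decide which amino acids a cell can take up, give back or release from its lysosomes. Several work as pairs: SLC3A2 is a heavy chain that carries light chains of the SLC7 family to the cell surface, among them SLC7A5 (LAT1), which brings in leucine and other large neutral amino acids in exchange for glutamine, and SLC7A11 (xCT), which brings in cystine for glutathione synthesis in exchange for glutamate. When amino acids run short, the kinase GCN2 raises the transcription factor ATF4, and ATF4 raises many of these transporter genes, whereas NRF2, which is held active in A549 by a KEAP1 mutation, raises SLC7A11. On lysosomes, SLC38A9 reports arginine to the growth-controlling kinase complex mTORC1.

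The labels and the cell type were checked first. GPX3 had 1311, 1031 and 1361 CPM (counts per 1000000 counts, scaled between libraries by TMM) in OE_GPX3 replicates 1, 2 and 3, against 36.0, 33.8 and 39.6 CPM in Vector replicates 1, 2 and 3. Values of single libraries are given by replicate number throughout. Total counts ranged from 15831693 to 18751815 per library, and protein-coding genes took 97.2% to 97.6% of them, although the library protocol in the labels describes small RNA enrichment. The summed FPKM (the authors' counts per gene length and library size) of 12 epithelial and A549 genes was 9816 to 11570 in OE_GPX3 and 8907 to 9383 in Vector, whereas the lung lineage genes SFTPC and NKX2-1 in that list stayed at or below 0.206 FPKM in any library. Markers of leukocytes, endothelium, fibroblasts, blood and liver, 12 genes in all, summed to 0.552 to 0.985 FPKM in OE_GPX3 and 0.674 to 0.797 FPKM in Vector.

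Promoter windows are shown for SLC38A2, the tested transporter with the smallest p, for the arginine transporter SLC7A1, and for the LAT1 pair, SLC3A2 and SLC7A5. Each holds 250 bases before to 50 after the RefSeq start (GRCh38.p14), written 5′ to 3′ on the gene's strand. Capitals mark TGATGNAA, the core of the composite element bound by ATF4 with C/EBP proteins, and TGACNNNGC, the core of the antioxidant response element bound by NRF2, each searched on both strands.
SLC38A2 (chr12:46372724-46373023, minus strand): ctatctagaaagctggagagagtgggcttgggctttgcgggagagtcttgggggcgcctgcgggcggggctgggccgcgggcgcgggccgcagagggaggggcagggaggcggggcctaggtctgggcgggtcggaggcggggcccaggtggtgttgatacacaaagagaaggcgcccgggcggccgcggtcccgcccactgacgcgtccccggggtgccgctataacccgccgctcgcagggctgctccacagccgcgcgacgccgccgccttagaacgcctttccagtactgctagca
SLC7A1 (chr13:29595639-29595938, minus strand): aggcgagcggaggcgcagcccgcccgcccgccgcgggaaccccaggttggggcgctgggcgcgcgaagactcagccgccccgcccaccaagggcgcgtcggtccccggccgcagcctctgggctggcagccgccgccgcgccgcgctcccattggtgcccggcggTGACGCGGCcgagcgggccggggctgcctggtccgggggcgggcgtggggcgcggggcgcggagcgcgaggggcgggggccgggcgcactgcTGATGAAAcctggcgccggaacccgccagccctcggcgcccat
SLC3A2 (chr11:62881449-62881748, plus strand): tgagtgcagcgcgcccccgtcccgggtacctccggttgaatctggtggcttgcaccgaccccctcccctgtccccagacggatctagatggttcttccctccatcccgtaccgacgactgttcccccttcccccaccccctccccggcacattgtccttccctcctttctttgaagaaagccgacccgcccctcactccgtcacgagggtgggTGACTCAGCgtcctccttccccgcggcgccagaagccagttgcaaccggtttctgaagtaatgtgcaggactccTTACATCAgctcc
SLC7A5 (chr16:87869458-87869757, minus strand): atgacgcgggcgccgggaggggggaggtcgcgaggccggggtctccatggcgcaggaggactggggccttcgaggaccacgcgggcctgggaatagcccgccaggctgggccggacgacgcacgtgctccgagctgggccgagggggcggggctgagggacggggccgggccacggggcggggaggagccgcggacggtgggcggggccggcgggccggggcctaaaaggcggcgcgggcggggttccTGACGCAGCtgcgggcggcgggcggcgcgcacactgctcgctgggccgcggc
TGATGNAA lay from base 8 to base 15 after the start of SLC7A1 and, on the opposite strand, from base 38 to base 45 after the start of SLC3A2. TGACNNNGC lay at -85 to -77 in SLC7A1, at -37 to -29 in SLC3A2 and across the start of SLC7A5, and neither motif was in the SLC38A2 window. The marked stretches of the windows do not overlap each other. The RefSeq start of SLC3A2 used here lies 25597 bases inside the gene as the deposited table bounds it, on a GENCODE 29 transcript start, and those of SLC7A5, SLC38A2 and SLC7A1 lie 19, 94 and 0 bases from the table's starts. Of the 32 transporters 25 had a window in the RefSeq table; TGATGNAA was in 4 of the 25 (SLC1A3, SLC3A2, SLC7A1 and SLC38A1), against 3.62% of all 35116 windows, and TGACNNNGC in 5 of the 25, against 13.3%. These are matches of letters, sequence outside the windows was not searched, and no window of SLC7A11 was used.

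How strongly A549 cells express each transporter was read from the deposited FPKM, which divide each count by the listed length of its gene. The order between genes therefore depends on those lengths, 4745 bases for SLC7A5 and 5178 for SLC3A2. Which transcripts of each gene these cells make was not measured. SLC7A5 stood highest, at 350, 380 and 447 FPKM in OE_GPX3, against 347, 476 and 441 FPKM in Vector. Its heavy chain SLC3A2 came next, at 156, 194 and 207 FPKM in OE_GPX3, against 162, 224 and 209 FPKM in Vector. SLC1A5 (ASCT2), which takes up glutamine, stood at 109, 139 and 172 FPKM in OE_GPX3, against 118, 184 and 164 FPKM in Vector. These 3 genes held 73.7% to 79.1% of the summed FPKM of the 32 transporters in OE_GPX3 and 74.2% to 78.6% in Vector. In Vector the libraries of SLC7A5 did not overlap those of SLC3A2, and those of SLC3A2 overlapped those of SLC1A5.

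A middle tier followed. SLC38A10, a family member of the Golgi and endoplasmic reticulum whose transport is less well described, averaged 46.8 ± 0.991 FPKM in OE_GPX3 and 41.5 ± 2.88 FPKM in Vector (SD, n = 3 each). SLC7A7 (y+LAT1), a light chain that exports arginine and lysine in exchange for neutral amino acids, averaged 46.8 ± 2.39 FPKM in OE_GPX3 and 40.7 ± 2.40 FPKM in Vector (SD, n = 3 each), and the libraries of these 2 genes overlapped in Vector. From SLC38A2 through the taurine transporter SLC6A6 and SLC7A1 to SLC7A2, a cationic amino acid transporter, the Vector means ran from 24.9 down to 15.7 FPKM, each gene's libraries overlapping the next. SLC1A4, SLC43A1, SLC7A11, SLC38A1, the glycine transporter SLC6A9 and SLC38A7 lay between 10.1 and 5.54 FPKM in Vector on average, again each overlapping the next. SLC43A2 (LAT4), which lets large neutral amino acids pass without exchange, averaged 4.75 ± 0.384 FPKM in OE_GPX3 and 4.30 ± 0.504 FPKM in Vector (SD, n = 3 each). SLC38A9, SLC38A6, the glutamate transporter SLC1A1, SLC36A1, SLC6A15, SLC6A14, SLC7A6 and SLC36A4 had Vector means from 2.13 down to 0.951 FPKM.

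At the bottom, SLC43A3, SLC7A8, SLC38A11 and SLC38A5 averaged 0.0744, 0.211, 0.0388 and 0.0397 FPKM in OE_GPX3 and 0.152, 0.113, 0.0836 and 0.0429 FPKM in Vector. SLC43A3 is best known for carrying purine bases and not amino acids. The heavy chain SLC3A1, which pairs with SLC7A9 in kidney cystine uptake, had 2, 2 and 0 counts in OE_GPX3 and 0 counts in every Vector library. The glial glutamate transporter SLC1A3, SLC7A3 and SLC38A4 had 0 counts in all 6 libraries, where 3 counts, the limit that a count of 0 allows, would be 0.160 to 0.189 per 1000000 counts of a library, counting error alone considered. Of the genes at the bottom SLC7A8 alone was tested.

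**Figure D1:**
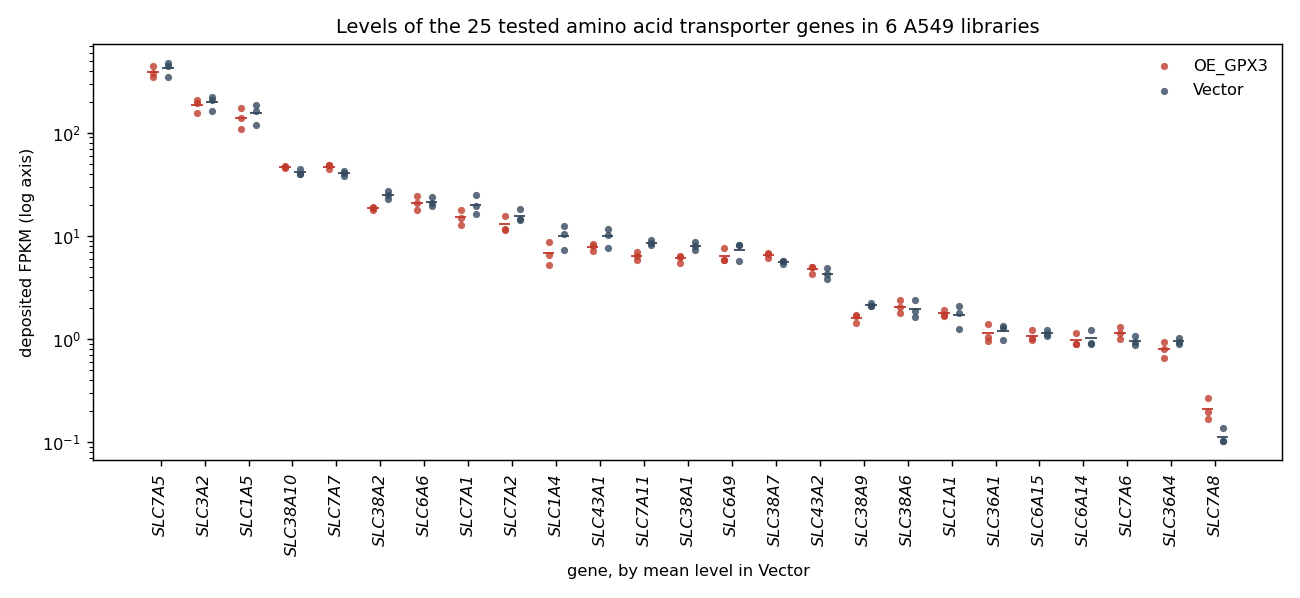
Deposited FPKM on a log axis for each of the 25 tested transporters, ordered by mean level in Vector, with 1 point per library, OE_GPX3 in red left of Vector in grey, and short lines at the group means. SLC7A5, SLC3A2 and SLC1A5 stand above 100 FPKM in every library, and SLC38A2, SLC7A11 and SLC38A1 are among the genes whose red points lie wholly below the grey ones.

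Whether GPX3 overexpression went with a different level of these genes was tested with edgeR's quasi-likelihood test over all 14458 genes, with Benjamini-Hochberg adjustment and a call at an adjusted p under 0.05. None of the 25 tested transporters was called, where 38 genes were called in all (0.263%, 0.0968% higher and 0.166% lower). At an unadjusted p under 0.05, 8 of the 25 passed, 7 lower and 1 higher in OE_GPX3, against 14.6% of all tested genes (7.76% lower and 6.83% higher). DESeq2, which gave 21 transporters an adjusted p, called SLC38A2, SLC7A11 and SLC38A1 lower (adjusted p = 0.00722, 0.0264 and 0.0376), where it called 0.426% of genes lower. For 8 of the 25 the OE_GPX3 and Vector libraries had no overlap in CPM, 4 lower and 4 higher, against 18.5% of all tested genes (9.9% lower and 8.62% higher). Of the 25, 17 had a log2 fold change (OE_GPX3 over Vector) below 0, against 52.6% of all genes, and their median was -0.11, against -0.02 over all genes.

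**Figure D2:**
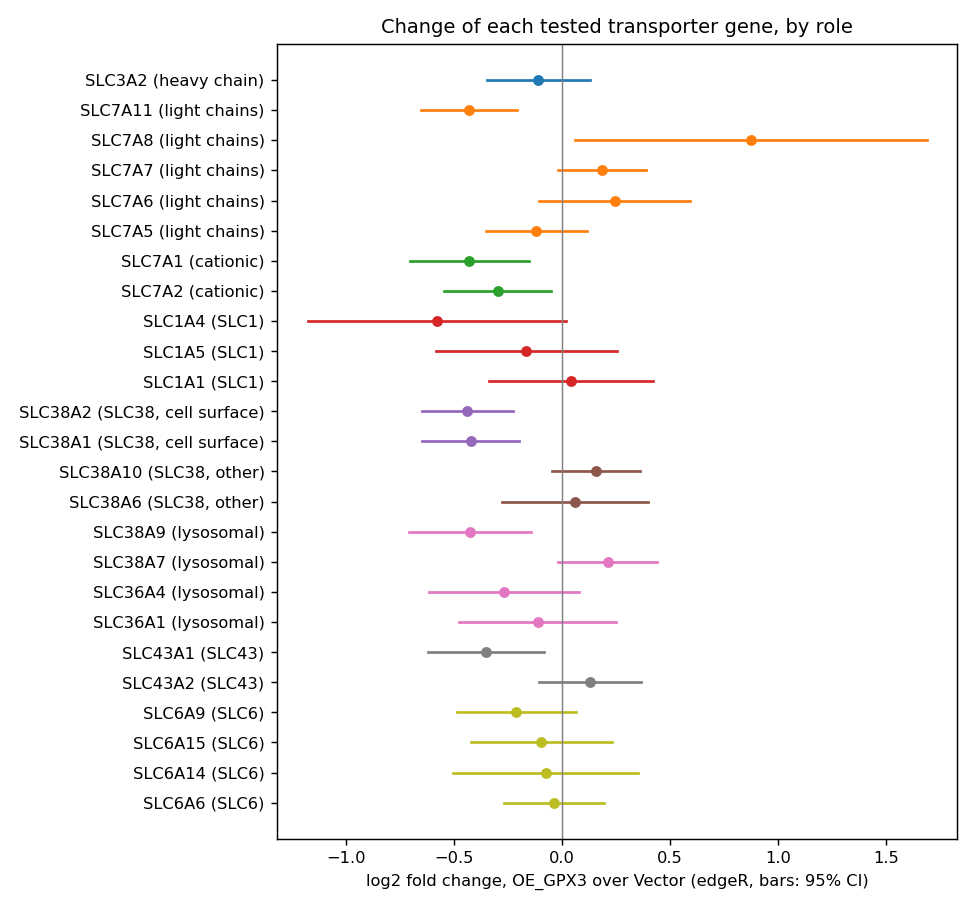
Log2 fold change of each tested transporter, OE_GPX3 over Vector, with its 95% confidence interval from edgeR, grouped and coloured by role. The intervals of SLC38A2, SLC38A1, SLC7A11, SLC7A1, SLC38A9, SLC43A1 and SLC7A2 lie below 0 and that of SLC7A8 above it, with none of these genes called after adjustment.

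SLC38A2 and SLC38A1, the 2 tested SLC38 transporters of the cell surface, had lower CPM in every OE_GPX3 library than in any Vector library. SLC38A2 (SNAT2; ENSG00000134294, chromosome 12, 46358189 to 46372867, minus strand, hg38), which accumulates alanine, glutamine and similar amino acids with sodium and is known to be induced when amino acids are scarce, had 125, 126 and 118 CPM in OE_GPX3, against 166, 182 and 152 CPM in Vector. Every OE_GPX3 library lay below every Vector library, and the OE_GPX3 libraries were close together. Its log2 fold change was -0.44 (standard error 0.10, 95% interval -0.65 to -0.23), 1.35-fold lower, and edgeR's adjusted p of 0.0506 missed the threshold. SLC38A1 (SNAT1; ENSG00000111371, chromosome 12, 46183063 to 46270017), a related sodium-coupled glutamine transporter, had 55.2, 63.6 and 62.6 CPM in OE_GPX3, against 80.7, 89.0 and 73.2 CPM in Vector. Here too the groups did not overlap, with a log2 fold change of -0.42 (edgeR adjusted p = 0.0779). SLC38A1 and SLC38A2 are neighbours, 88.2 kb apart with no listed gene between them.

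SLC7A11 (ENSG00000151012, chromosome 4, 138164097 to 138242349), the cystine importer, showed a similar difference. It had 57.0, 67.6 and 61.8 CPM in OE_GPX3, against 90.0, 82.4 and 78.4 CPM in Vector. Its groups did not overlap, and Vector replicate 1 was its highest library. The 95% interval of its log2 fold change, -0.43, was -0.65 to -0.21, and the adjusted p by edgeR was 0.0691. An antisense gene, SLC7A11-AS1, overlaps it but had 17 counts over all 6 libraries.

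The other partners of SLC3A2 lay on both sides. SLC3A2 itself (ENSG00000168003, chromosome 11, 62856102 to 62888875) had 815, 1004 and 1066 CPM in OE_GPX3, against 850, 1175 and 1086 CPM in Vector, that is -0.11 on the log2 scale (interval -0.35 to 0.13; edgeR adjusted p = 0.682). SLC7A5 had 1673, 1799 and 2113 CPM in OE_GPX3, against 1672, 2283 and 2105 CPM in Vector, that is -0.12 on the log2 scale (interval -0.35 to 0.12; edgeR adjusted p = 0.645). For both genes replicate 1 was the lowest library of either group, and the groups overlapped over most of their range. The pseudogenes of SLC7A5 drew few reads: SLC7A5P1 had 7 to 14 counts per OE_GPX3 library and 8 to 17 per Vector library. SLC7A5P2 had 0 counts in every library, and MIR6775, a microRNA gene inside SLC7A5, had at most 4. SLC7A8 (LAT2), another large neutral amino acid exchanger, had 29, 17 and 18 counts in OE_GPX3, against 11, 16 and 10 counts in Vector, with no overlap but very few reads. SLC7A7 and SLC7A6, the 2 y+LAT light chains, had log2 fold changes of 0.19 and 0.24 (edgeR adjusted p = 0.387 and 0.518). SLC7A7 lay between 225 and 249 CPM in OE_GPX3 and between 199 and 222 CPM in Vector. Its start is 59 bases from that of MRPL52 on the opposite strand, which had a log2 fold change of 0.23. SLC7A7 and SLC7A8 lie 295 kb apart on chromosome 14.

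One gene beside SLC3A2 was called. SNHG1, whose introns hold small nucleolar RNAs, had 26.8, 30.2 and 31.5 CPM in OE_GPX3, against 46.5, 71.2 and 46.2 CPM in Vector. It fell 1.86-fold (log2 fold change -0.89, edgeR adjusted p = 0.00225). Its start lies 188 bases, on the opposite strand, from the start of SLC3A2 as the deposited table bounds it. The RefSeq start of SLC3A2 used for the promoter window lies 25597 bases inside that boundary. The 95% confidence intervals of the log2 fold changes of SNHG1 (-1.18 to -0.61) and of SLC3A2 do not overlap; the difference between them was not tested.

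The balance of light chains was compared as shares of the summed FPKM of SLC7A5, SLC7A6, SLC7A7, SLC7A8 and SLC7A11. SLC7A5 made up 87.7% ± 1.71 in OE_GPX3 and 89.2% ± 1.38 in Vector, and SLC7A7 10.6% ± 1.59 in OE_GPX3 and 8.71% ± 0.952 in Vector (SD, n = 3 each). SLC7A11 made up 1.45% ± 0.161 in OE_GPX3 and 1.86% ± 0.404 in Vector (SD, n = 3 each). The sum of the 5 light chains was 2.42 ± 0.174 times the FPKM of SLC3A2 in OE_GPX3 and 2.39 ± 0.0537 times in Vector (SD, n = 3 each). This ratio is of RNA per listed gene length and does not count protein chains. Over the 6 measures the exact two-sided permutation p ran from 0.1, the smallest that 3 against 3 libraries can give, for the small share of SLC7A8, to 0.8 for the ratio to SLC3A2, with adjusted p of 0.36 and above. The Vector share of SLC7A11 was 2.32% in replicate 1 and 1.61% and 1.64% in replicates 2 and 3, and without Vector replicate 1 the difference in this share was -0.173 percentage points, against -0.406 with all libraries. The difference in the SLC7A5 share was -0.860 percentage points without OE_GPX3 replicate 1 and -0.913 without Vector replicate 2, against -1.53 with all libraries; that in the SLC7A7 share was 1.21 without OE_GPX3 replicate 1, against 1.87. Without OE_GPX3 replicate 1 the ratio to SLC3A2 differed by -0.0566, against 0.0315 with all libraries.

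The cationic amino acid transporters were lower on average, with overlap. SLC7A1 (CAT1; ENSG00000139514, chromosome 13, 29509410 to 29595688), the main arginine importer of most cells, had 99.0, 114 and 136 CPM in OE_GPX3, against 127, 193 and 150 CPM in Vector. OE_GPX3 replicate 3 lay above Vector replicate 1, so the groups overlapped, at -0.43 on the log2 scale (interval -0.70 to -0.15; edgeR adjusted p = 0.160). SLC7A2 (CAT2, chromosome 8) had 125, 90.0 and 91.3 CPM in OE_GPX3, against 118, 146 and 113 CPM in Vector, with OE_GPX3 replicate 1 apart from the other two (log2 fold change -0.30, edgeR adjusted p = 0.271).

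In the SLC1 family, SLC1A4 (ASCT1), an exchanger of alanine, serine and cysteine, had the lowest log2 fold change of the tested transporters, -0.58, with a wide interval of -1.17 to 0.02 (edgeR adjusted p = 0.353). It had 36.3, 45.3 and 60.7 CPM in OE_GPX3, against 51.5, 87.7 and 72.6 CPM in Vector. In both groups replicate 1 was lowest, and OE_GPX3 replicate 3 lay above Vector replicate 1. SLC1A5 followed the same order of libraries, with 367, 463 and 571 CPM in OE_GPX3, against 401, 620 and 548 CPM in Vector (log2 fold change -0.16, edgeR adjusted p = 0.713). SLC1A1 had a log2 fold change of 0.04.

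Among lysosomal transporters the values went both ways. SLC38A9 (ENSG00000177058, chromosome 5, 55625845 to 55773194), the arginine sensor, had 14.9, 15.1 and 12.5 CPM in OE_GPX3, against 18.6, 19.9 and 18.6 CPM in Vector. The groups did not overlap, at -0.42 on the log2 scale (interval -0.71 to -0.14; edgeR adjusted p = 0.169). SLC38A7 (SNAT7), which exports glutamine and asparagine from lysosomes, had 47.7, 42.6 and 45.9 CPM in OE_GPX3, against 40.5, 37.3 and 39.9 CPM in Vector, again without overlap but higher in OE_GPX3 (log2 fold change 0.21, edgeR adjusted p = 0.379). SLC36A1, a proton-coupled transporter of small amino acids, and SLC36A4, a transporter of proline and tryptophan, had log2 fold changes of -0.11 and -0.27 (edgeR adjusted p = 0.798 and 0.466). The groups overlapped for both genes.

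The remaining families gave no call either. SLC43A1 (LAT3), a carrier of large neutral amino acids, had 25.6, 27.9 and 29.5 CPM in OE_GPX3, against 27.5, 41.7 and 36.4 CPM in Vector, with Vector replicate 1 inside the OE_GPX3 range (log2 fold change -0.35, edgeR adjusted p = 0.231). SLC43A2, SLC38A10 and SLC38A6 had log2 fold changes of 0.13, 0.16 and 0.06 (edgeR adjusted p = 0.612, 0.464 and 0.889), and the groups did not overlap for SLC38A10, at 354 to 372 CPM in OE_GPX3 and 311 to 348 CPM in Vector. The 4 SLC6 genes had log2 fold changes from -0.21 for SLC6A9 to -0.04 for SLC6A6, with overlapping groups, and edgeR adjusted p from 0.474 to 0.901. SLC6A14 and SLC6A15, importers of a broad range of amino acids and of branched-chain amino acids and proline, were at -0.07 and -0.10.

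The spread within the groups was not the same for all transporters. In 6 of the 25, namely SLC1A4, SLC1A5, SLC3A2, SLC43A1, SLC7A1 and SLC7A5, Vector replicate 2 was the highest and replicate 1 the lowest Vector library, and replicate 3 the highest and replicate 1 the lowest OE_GPX3 library. The order was read from these same libraries, so its counts describe them and test nothing. All tested genes showed that order in 3.13% of cases (453 of 14458). In the list of ATF4 and its axis 12 of 19 genes showed it. SLC38A2, SLC38A1, SLC7A11 and SLC38A9 did not, and their OE_GPX3 libraries lay below all Vector libraries. Vector replicate 2 was the highest of all 6 libraries for 12 of the 25 transporters and for 7 of the 8 listed as textbook ATF4 targets, with SLC7A11 the exception, against 18.1% of all tested genes.

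**Figure D3:**
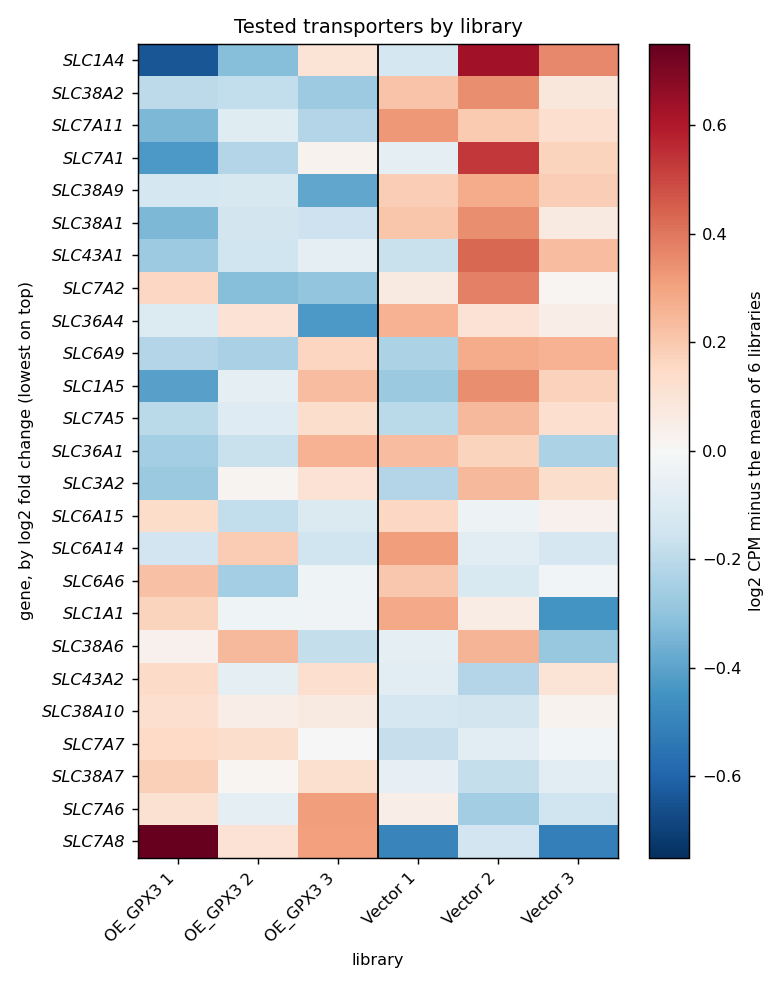
Log2 CPM of each tested transporter in each library minus its mean over the 6 libraries, with OE_GPX3 left of the black line and Vector right of it, and genes ordered from the lowest to the highest log2 fold change. SLC38A2, SLC7A11, SLC38A9 and SLC38A1 are blue in all OE_GPX3 libraries and red in all Vector libraries, while SLC1A4, SLC7A1, SLC1A5 and SLC7A5 are darkest red in Vector replicate 2.

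The 8 transporters known as ATF4 targets (SLC7A11, SLC3A2, SLC7A5, SLC7A1, SLC1A4, SLC1A5, SLC38A2 and SLC6A9) had log2 fold changes from -0.58 to -0.11, a median of -0.32, and none was called by edgeR. With 1 library left out their median ran from -0.37 without OE_GPX3 replicate 3 to -0.18 without Vector replicate 2. Their mean log2 CPM relative to all 6 libraries was -0.34, -0.15 and 0.03 in OE_GPX3, against -0.08, 0.35 and 0.18 in Vector. The 19 genes of the ATF4 axis stood in the same order, at -0.43, -0.24 and -0.03 in OE_GPX3, against -0.06, 0.49 and 0.27 in Vector. Of those 19, PPP1R15A, a phosphatase subunit that ends the stress response, and CEBPG, a partner of ATF4, fell (log2 fold changes -0.62 and -0.59, edgeR adjusted p = 0.0253 and 0.0255). Of the rest 0 were called higher and 17 were not called, where 0.166% of all tested genes were called lower. An unadjusted edgeR p under 0.05 was reached by 31.6% of the 19, against 14.6% of all tested genes. A log2 fold change below 0 was found in 84.2% of the 19, against 52.6%. ATF3 and DDIT3, stress-induced transcription factors, had -1.30 and -1.54 (edgeR adjusted p = 0.0517 and 0.273). ATF4 itself had 249, 321 and 361 CPM in OE_GPX3, against 298, 492 and 387 CPM in Vector, with overlap (log2 fold change -0.34, edgeR adjusted p = 0.431). The median of the axis was -0.34 with all libraries. With 1 library left out it ran from -0.50 without Vector replicate 1 to -0.14 without Vector replicate 2.

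The other genes of amino acid handling showed no call. Of 25 further amino acid transporters 7 were tested and 0 were called by edgeR, with a median log2 fold change of 0.02. MFSD12, needed for cysteine import into lysosomes and melanosomes, had 0.33, the neutral amino acid transporter SLC6A17 of neurons 0.36, the histidine and peptide transporter SLC15A4 -0.19 and PQLC2, the lysosomal exporter of cationic amino acids, 0.05. One of the 7, MFSD12, had an unadjusted p under 0.05. Of 36 genes of amino acid sensing by mTORC1, 35 were tested, 0 were called by edgeR and 5 had an unadjusted p under 0.05, a share of 14.3% against 14.6% of all tested genes. The Ragulator subunits LAMTOR2 and LAMTOR5 had log2 fold changes of 0.29 and 0.25, the folliculin partner FNIP1 -0.50 and the GATOR2 subunit SEH1L -0.30, and the median of the list was 0. Of 14 genes of cystine, glutathione and glutamine metabolism 0 were called by edgeR and 4 had an unadjusted p under 0.05, a share of 28.6% against 14.6% of all tested genes. These were GGT1, which breaks down extracellular glutathione, at 0.31, the glutamine synthetase GLUL at 0.30, the cystathionine lyase CTH at -0.41 and CHAC2, which degrades glutathione in the cell, at -0.39.

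Base composition differed between the transporters without overlap, though not between all that lay below and above 0. The 4 transporters with all OE_GPX3 libraries below Vector had a GC content of 38.6% to 46.4% in their GENCODE 29 transcripts, and the 4 with all OE_GPX3 libraries above Vector had 51.9% to 62.2%. These transporters were grouped by their values in the same libraries, and the GC content of other genes without overlap was not compared. Whether the split is particular to transporters was therefore not tested. Over all 25, the GC content ran from 38.4% to 62.2% with a median of 53.3% for the 8 transporters above 0, and from 38.6% to 61.3% with a median of 53.0% for the 17 below 0. After a correction for GC content, the log2 fold change of SLC38A2 was -0.24 (edgeR adjusted p = 0.360), that of SLC7A11 -0.23 and that of SLC38A9 -0.24. SLC38A1 stood at -0.30, SLC38A10 at 0.03, and SLC7A7 at 0.20. SLC7A1 and SLC1A4, with a GC content of 55.4% and 53.0%, stood at -0.48 and -0.59, and SLC43A1, at 60.6%, stood at -0.47, against -0.35 without the correction. SLC7A5 stood at -0.24, against -0.12 without it. None of the 25 was called by edgeR after the correction, and 3 genes were called in all. The correction takes out any trend of a library with GC content, and with it any group difference that follows GC content. The source of such a trend was not tested.

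How far a call depended on the fit differed between genes. Over 19 fits, SLC38A2 was called lower in 8, SLC7A11, SLC38A1 and SLC1A4 in 5 each, SLC7A1 in 4 and SLC7A2 in 1, and no transporter was called higher. The share of all genes called lower, in the fits that called a transporter, was 0.38% with total counts alone, 0.263% with upper-quartile scaling, 0.291% with no filter on low counts, 0.195% at a mean CPM of 1 or more and 0.166% among protein-coding genes. It was 0.622% with the replicate number as a block and 0.194% with that block and a GC correction. It was 1.75% without OE_GPX3 replicate 1 and 0.598% without Vector replicate 1. In the fits that called no transporter it was 0.0277% and 0% with filtered and unfiltered FPKM, 0.00692% after the GC correction, and 0%, 0.061%, 0.0204% and 0.088% without OE_GPX3 replicate 2, OE_GPX3 replicate 3, Vector replicate 2 and Vector replicate 3. Leaving out OE_GPX3 replicate 1 gave 5 calls (SLC1A4, SLC38A1, SLC38A2, SLC7A11 and SLC7A2) and leaving out Vector replicate 1 gave 2 (SLC1A4 and SLC7A1), with edgeR. Leaving out Vector replicate 2 gave 0 calls, with 6 transporters at an unadjusted p under 0.05 and SLC38A2 at -0.37 (edgeR adjusted p = 0.624). The log2 fold change of SLC38A2 ranged from -0.50 to -0.24 over all fits, and that of SLC1A4 from -0.78 to -0.39.

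**Figure D4:**
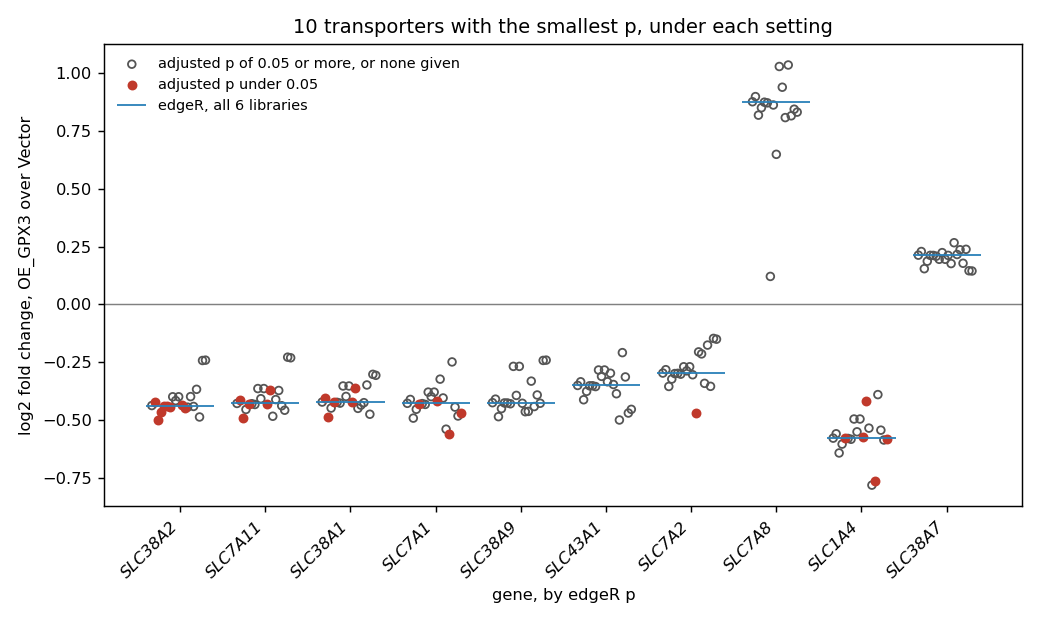
Log2 fold change of the 10 transporters with the smallest edgeR p under each of 19 fits, red where the adjusted p was under 0.05 and open elsewhere, with a blue line at the edgeR fit of all 6 libraries. SLC38A2, SLC7A11, SLC38A1, SLC7A1 and SLC1A4 stay below 0 in every fit and are red in 8, 5, 5, 4 and 5 of them.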

How the data were processed

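RNA from 6 A549 libraries was compared, 3 OE_GPX3 and 3 Vector, grouped by title. The authors deposited whole-number counts per gene and library. They also deposited FPKM, which equal the count per gene length and 1 constant per library; set against the total count, this constant is off by -4.52% to 4.90%, and the sources used here do not say how it was set. The build is hg38 per the submitters' processing notes. For aligner, counter and strand the sources used here give nothing, so overlapping genes on opposite strands cannot be told apart.

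Genes were filtered with filterByExpr (minimum count 10, minimum total 15), scaled by TMM and tested with edgeR 4.0.16 (quasi-likelihood, robust, two-sided, Benjamini-Hochberg over 14458 genes, threshold 0.05) in R 4.3.3. CPM are per 1000000 filtered counts, and the biological coefficient of variation was 0.110. The script was tested on data simulated with the same biological coefficient of variation for all genes. Such data hold no differences in this spread between genes and no trends of single libraries. Alternatives were DESeq2 1.42.0, limma 3.58.1 on log2(FPKM + 1) and log2(FPKM + 0.1), which understates changes of low genes, other scalings and filters, each library left out, the replicate number as a block, and, chosen after seeing the data, a loess correction for transcript GC. Light chain shares were compared by exact permutation tests.

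All 32 transporters are named. Values of every library are given for SLC3A2, SLC7A5, SLC7A11, SLC7A1, SLC1A5 and SLC38A2 and for the 10 tested transporters with the smallest p; from each other list up to 4 genes with the smallest p are named, and ATF4 was named after its values were seen. The transporters and lists were chosen with earlier results of these data known. Sequences are from RefSeq (GRCh38.p14).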

Additional observations from a re-analysis of the deposited data

How the results depend on the processing

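Over the 18 alternatives the log2 fold changes of the 13 transporters given in every library kept their direction, where they could be fitted, but not their size: that of SLC3A2 was -0.0015 without OE_GPX3 replicate 1 and -0.233 without Vector replicate 1, that of SLC1A5 -0.0158 and -0.3234 without these libraries, and that of SLC7A5 -0.0209 without Vector replicate 2 and -0.2375 without Vector replicate 1. The count of transporters called, 0 by edgeR, was 3 with DESeq2 and with total counts alone, 5 with no filter on low counts, 1 each with upper-quartile scaling, a minimum mean CPM of 1 or protein-coding genes alone, 0 with each FPKM fit and after the GC correction, and 0 to 5 with 1 library left out. The count over all genes, 38, was 110 with DESeq2, 68 with total counts alone, 129 with no filter, 4, 4 and 1 with FPKM (pseudocount 1, pseudocount 0.1, no filter), 3 after the GC correction, and 1 to 657 with 1 library left out; the causes were not tested. Same-numbered libraries deviated from their group means with correlations of 0.192, 0.0104 and 0.114 for numbers 1, 2 and 3. For libraries of unlike number the correlations ran from -0.151 to 0.0493. The labels do not say what the numbers share, so the main fit left them out. Whether they pair the samples was not tested. With the replicate number as a block 5 transporters and 231 genes were called, and with the replicate block and the GC correction 2 transporters.

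The median of the tested transporters stayed between -0.21 and -0.05. That of the mTORC1 sensing list was -0.0568 with total counts alone, 0.0573 and 0.0723 with the filtered FPKM fits (pseudocount 1 and 0.1), and -0.0518 to 0.03 with 1 library left out. That of the cystine and glutathione list was -0.1086 with total counts alone, 0.0402 after the GC correction, 0.0368 with the replicate block and GC correction, and -0.1012 to 5e-04 with 1 library left out. The light chain sum over SLC3A2 differed by -0.0566 to 0.118 with 1 library left out. Depth limited SLC7A8, with at most 29 counts a library, and the 7 transporters under the filter.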
